A study of Danio rerio with 8 samples.

Results

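Mitochondria make a few of their proteins on their own ribosome and take in all others from the cytosol. The genes described here encode the proteins of that ribosome and of the import machinery. They were chosen by name, as genes whose symbol on the platform begins with mrpl or mrps (proteins of the large and small ribosomal subunit), timm (translocases of the inner membrane) or tomm (translocases of the outer membrane), each followed by a digit. The array carried 77 such genes on 88 probe sets, and 70 genes reached a signal of 41 on at least 2 of the 8 arrays. These 70 members, 36 mrpl, 19 mrps, 8 timm and 7 tomm genes, stand among 5219 named genes and 7375 probe sets that passed the same filter. Each gene is represented by its brightest probe set.

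Mitochondrial ribosomal proteins are encoded in the nucleus, made in the cytosol and assembled inside the organelle with ribosomal RNA from mitochondrial DNA, where the ribosome translates core subunits of the respiratory chain. Precursor proteins are recognised by receptors of the TOM complex, pass its pore and are then sorted by small chaperones of the intermembrane space and by the TIM23 and TIM22 complexes of the inner membrane. An early fish embryo inherits its mitochondria from the egg, together with a store of maternal mRNA that is gradually replaced by the embryo's own transcripts.

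Whole zebrafish embryos were profiled on Affymetrix arrays in 4 groups of 2 biological replicates, with 120 embryos pooled for each array. The groups were MZspg and wild type (WT) at 60% epiboly, 7 hours after fertilisation, and MZspg and WT at 30% epiboly, 4.7 hours after fertilisation. Epiboly is the spreading of the cells over the yolk. MZspg embryos carried the m793 allele of spg, the locus of the transcription factor Pou5f3, and lacked its maternal and zygotic function, while AB x TÜB crosses gave the WT embryos. The labels name no other background for MZspg, so genotype and strain background cannot be told apart. Embryos were timed from in vitro fertilisation or, for natural crosses, at the 4-cell stage, and the labels do not tie a sample to either route.

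The pou5f3 transcript had signals of 1268 and 890.8 in MZspg and 2957 and 2214 in WT at 60% epiboly, and 1292 and 1327 in MZspg and 2850 and 3166 in WT at 30%. Its probe set was lower in MZspg at both stages (log2 fold change -1.26 at 60% and -1.19 at 30%, limma adjusted p = 0.0108 and 0.0223). One array stood apart for the members: replicate 2 of MZspg at 60% held the highest value of 34 of 70 members (48.6%), against 18% of all tested probe sets. It was also the lowest array for 5 members (7.14%), against 30.1% of all tested probe sets. Together with replicate 2 of WT at 60% it had a high level of spike-in controls, with geometric means of 736.4 and 592.1 against 78.8 to 189.9 on the other 6 arrays. The same arrays had the most empty cells, with 20.21% and 22.42% against 14.98% to 18.2% on the others. Markers of later tissues were dim, with none of 4 on the array passing the filter.

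The plot of deviations by array shows this for all members. On replicate 2 of MZspg at 60% the median member lay 0.37 above its own mean over the 8 arrays on the log2(signal + 9) scale, while the median of all tested probe sets lay at -0.15. The median was highest for the ribosomal genes, with 0.54 for mrpl and 0.39 for mrps, against -0.06 for timm and 0.16 for tomm. Each class lay above the -0.15 of all tested probe sets. The opposite end was replicate 2 of WT at 30%, with a median of -0.30 against 0.01 for all tested probe sets. That array held the highest value of 0 members (against 6.75% of all) and the lowest of 19 (27.1%, against 9.57%). Replicate 2 of WT at 60% also held the highest value of 0 members, against 4.66% of all.

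**Figure D1:**
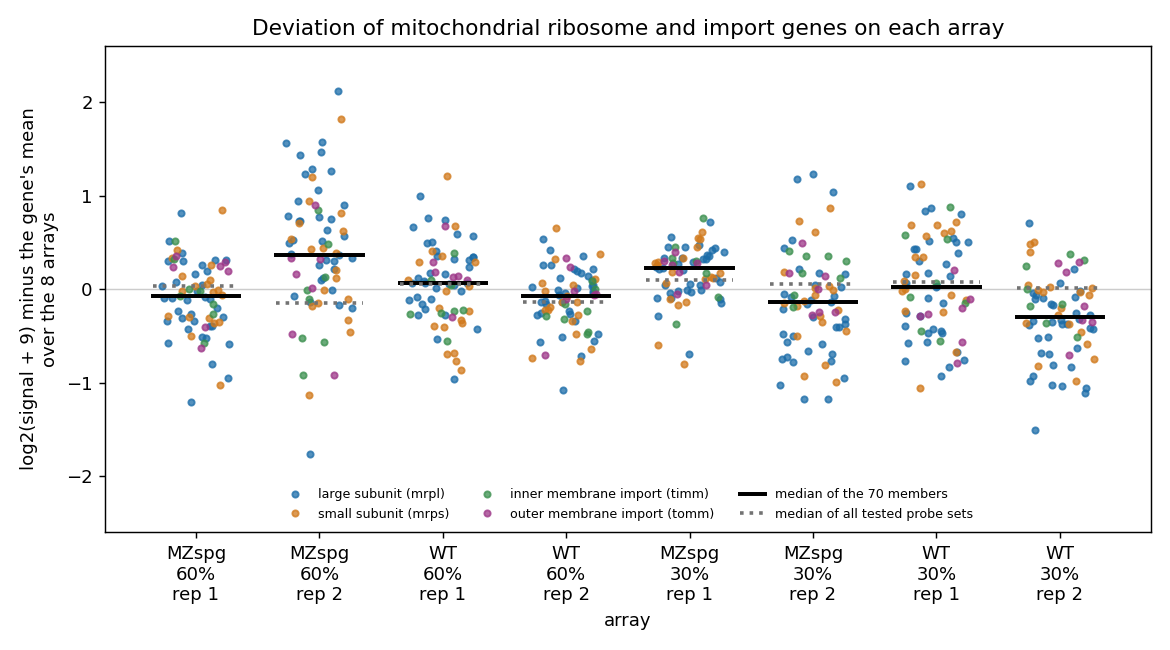
Each point is 1 of the 70 members on 1 of the 8 arrays (x axis), drawn as its log2(signal + 9) minus its mean over the 8 arrays (y axis); solid bars are member medians and dotted bars medians of all 7375 tested probe sets. Replicate 2 of MZspg at 60% has a member median of 0.37 against -0.15 for all tested probe sets, and replicate 2 of WT at 30% has -0.30 against 0.01.

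The first question was whether loss of Pou5f3 function changed these genes at either stage. In the limma test over all probe sets, where a call is an adjusted p under 0.05, 0 of 70 members were called at 60% epiboly, against 4.52% of all tested probe sets (2.28% higher and 2.24% lower). At 30% epiboly 0 of 70 were called, against 1.68% (0.407% higher and 1.27% lower). At an unadjusted p under 0.05 the counts were 6 members (8.57%) at 60% and 4 members (5.71%) at 30%, against 22.2% and 9.36% of all tested probe sets. Of these, 3 lay higher and 3 lower at 60% (11.2% and 11% of all), and 2 higher and 2 lower at 30% (4.07% and 5.29% of all). The smallest adjusted p was 0.104 at 60% and 0.264 at 30%. Because whole embryos were pooled, fewer cells with many mitochondria and less RNA per cell cannot be told apart in any of these values.

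Intervals were wide with 2 arrays per group. The 95% interval of the genotype difference had a median half-width of 0.86 on the log2(signal + 9) scale. At 60% epiboly the interval of 53 members reached a 2-fold difference and that of 17 lay wholly within it. At 30% these counts were 46 and 24. A 2-fold difference could therefore not be excluded for most of these genes, and smaller differences could not be told from none.

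**Figure D2:**
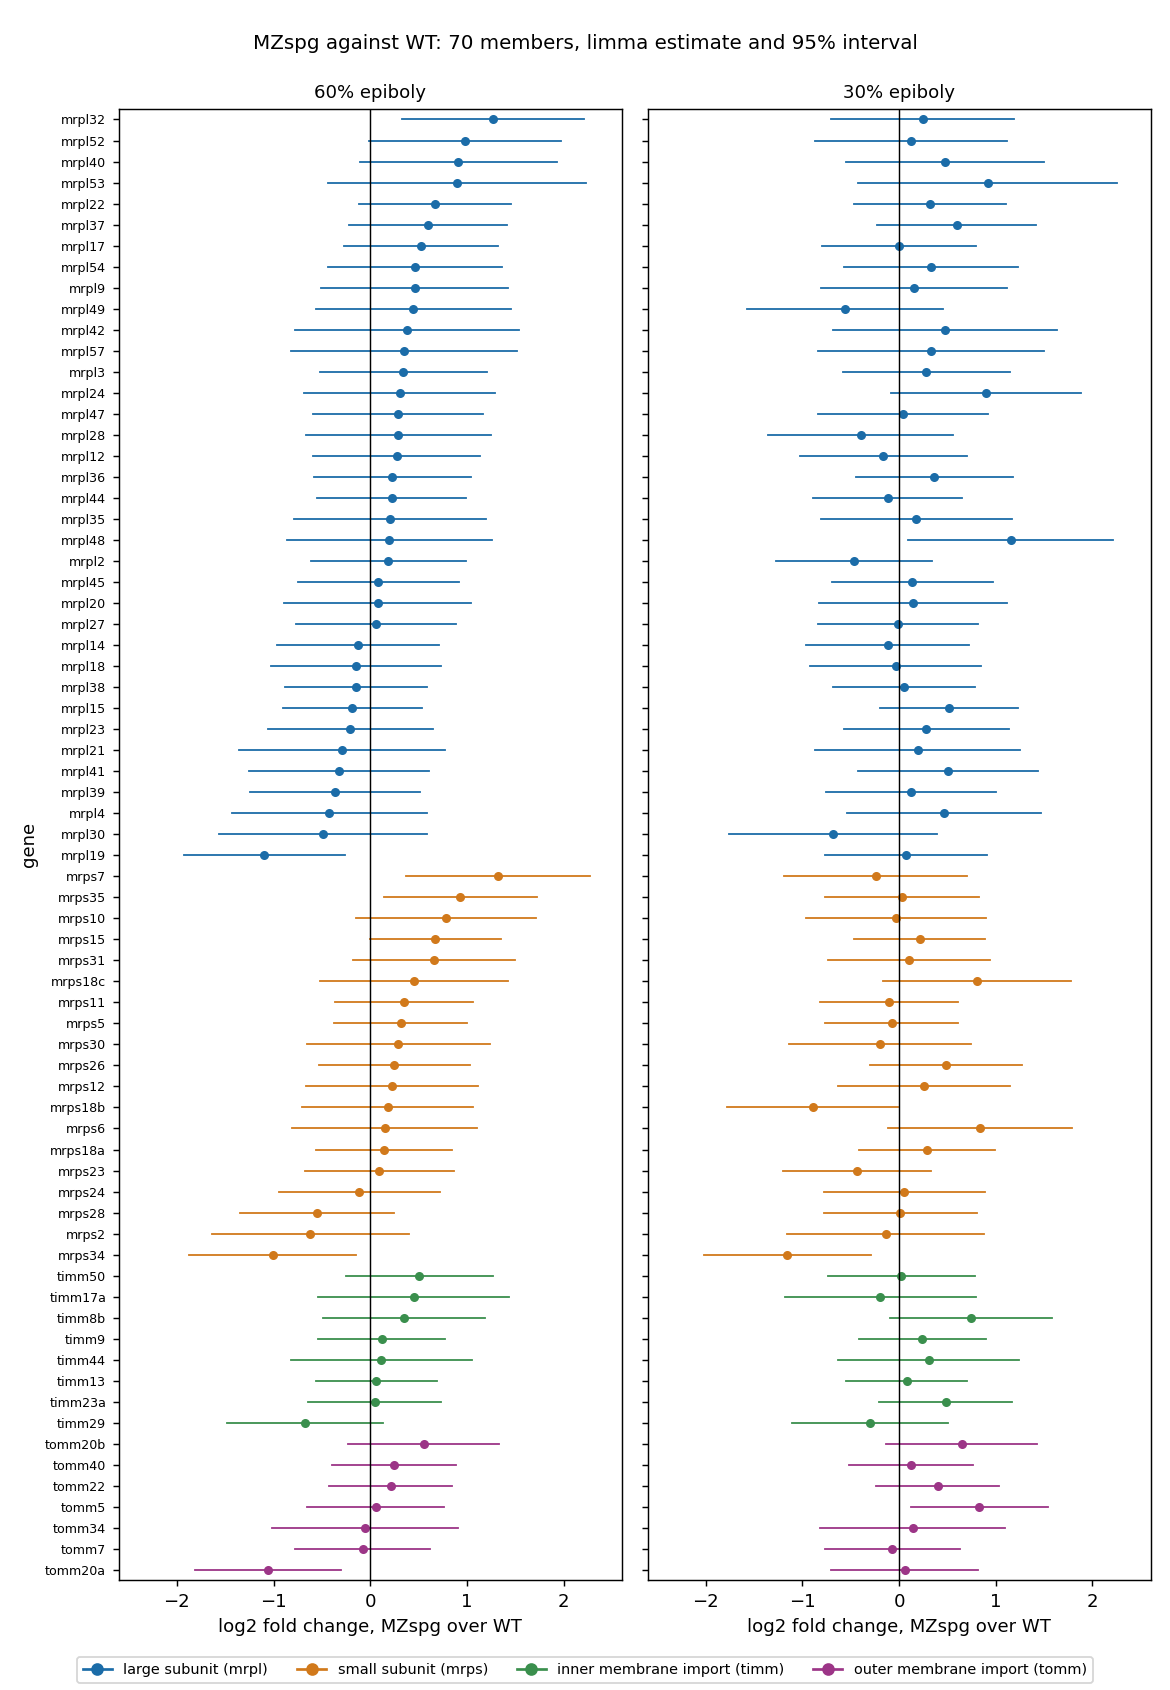
Points are the limma log2 fold changes of MZspg over WT for each of the 70 members (y axis, grouped by class) at 60% (left) and 30% epiboly (right), and lines are 95% intervals. At 60% the estimates run from -1.10 for mrpl19 to 1.32 for mrps7, and at 30% from -1.16 for mrps34 to 1.16 for mrpl48; none passed the adjusted threshold.

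Among the proteins of the large subunit, mrpl32, whose mouse counterpart is matured by a protease of the inner membrane, had signals of 116.7 and 184.4 in MZspg and 44.1 and 69.8 in WT at 60% epiboly. Both MZspg arrays lay above both WT arrays, and the difference missed the threshold (log2 fold change 1.27, SE 0.43, limma adjusted p = 0.117). At 30% its signals were 64.9 and 32.6 in MZspg and 49.7 and 28.4 in WT, and the groups overlapped. The probe set of mrpl19, another protein of the large subunit, lay the other way at 60%. It had 16.6 and an empty cell in MZspg, against 41.8 and 30.9 in WT, with the empty cell filled at 8.35 for the fit (log2 fold change -1.10, SE 0.38, adjusted p = 0.123). At 30% mrpl19 had 88.0 and 129.6 in MZspg and 117.7 and 87.0 in WT, again with overlap.

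At 30% epiboly, mrpl48 and mrpl24 of the large subunit had the smallest p of their class. For mrpl48 the signals were 32.05 and 64.2 in MZspg and 27.5 and 7.55 in WT (log2 fold change 1.16, SE 0.48, limma adjusted p = 0.453). It is also the member nearest to the filter, with a second-highest signal of 42.3. The gene mrpl48 passed only through replicate 2 of MZspg at each stage (64.2 at 30% and 42.3 at 60%). Its signal lay below the filter on every WT array, so its higher values in MZspg at 30% are no independent support. For mrpl24 the signals were 89.5 and 50.2 in MZspg and 35.8 and 28.5 in WT (0.90, adjusted p = 0.625). Neither group pair overlapped, yet at 60% mrpl48 had 18.1 and 42.3 in MZspg and 28.5 and 19.3 in WT, and mrpl24 had 66.2 and 171.0 in MZspg and 88.4 and 82.2 in WT, both with overlap. The brightest probe set of the class, mrpl38, gave 271.0 and 262.9 in MZspg and 277.8 and 317.8 in WT at 60%, and 326.9 and 198.3 in MZspg and 271.3 and 221.2 in WT at 30%. Its log2 fold changes were -0.15 and 0.06.

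Among the proteins of the small subunit, mrps7, a protein that binds the ribosomal RNA, had the largest difference at 60%. Its signals were 136.0 and 276.7 in MZspg, against 70.8 and 74.3 in WT (log2 fold change 1.32, SE 0.43, 95% interval 0.37 to 2.27, limma adjusted p = 0.104). At 30% they were 44.6 and 31.6 in MZspg and 65.4 and 31.9 in WT, with overlap and a log2 fold change of -0.24. The test of the difference between the stages gave 1.56 (SE 0.61, adjusted p = 0.533), which misses the threshold. A second probe set for mrps7, too dim to be tested, did not show the difference at 60%: it had 19.4 and 23.6 in MZspg and 37.0 and 25.8 in WT.

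The small-subunit gene mrps34 was the member with the smallest p at 30% and lay below WT at both stages. At 60% its signals were 141.5 and 97.5 in MZspg and 330.9 and 181.2 in WT (log2 fold change -1.01, 95% interval -1.87 to -0.14, limma adjusted p = 0.165). At 30% they were 75.2 and 68.0 in MZspg and 208.5 and 139.4 in WT (-1.16, 95% interval -2.02 to -0.29, adjusted p = 0.264). All 4 MZspg arrays lay below the WT arrays of their own stage. It was the only member with groups that did not overlap and lower values in MZspg at both stages (1.43% of members, against 8.35% of all tested probe sets). It was singled out after its values were seen, and neither comparison passed.

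Of the other small-subunit genes, mrps35 had 72.6 and 90.9 in MZspg and 31.5 and 46.3 in WT at 60% (log2 fold change 0.93, SE 0.36, limma adjusted p = 0.163). At 30% its groups overlapped, with 64.7 and 48.3 in MZspg and 63.0 and 47.2 in WT. The gene mrps18b had 77.4 and 61.0 in MZspg and 147.3 and 124.2 in WT at 30% (-0.89, SE 0.41, adjusted p = 0.527). Its probe set is of a kind that can match more than 1 transcript, and at 60% the groups overlapped, with 90.2 and 75.2 in MZspg and 107.4 and 46.7 in WT. In a second tested probe set of mrps18b the groups overlapped at 30%. It had 68.3 and 73.7 in MZspg and 94.5 and 70.6 in WT there (-0.18). The brightest probe set of the class, mrps15, had 352.8 and 354.6 in MZspg and 201.5 and 237.3 in WT at 60% (0.67, adjusted p = 0.228). At 30% it had 283.9 and 249.4 in MZspg and 261.1 and 199.4 in WT, with overlap.

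The translocases of the inner membrane showed smaller differences, and none of the 8 had an unadjusted p under 0.05 in either genotype comparison. The gene timm50, a receptor of the TIM23 complex, had 534.4 and 424.8 in MZspg and 364.9 and 303.9 in WT at 60% (log2 fold change 0.51, limma adjusted p = 0.417). At 30% its groups overlapped, with 402.4 and 528.1 in MZspg and 623.1 and 329.7 in WT. The gene timm29, a part of the TIM22 complex in humans, had 32.8 and 24.1 in MZspg and 44.3 and 57.4 in WT at 60% (-0.68, adjusted p = 0.302). These 2 genes thus lay on opposite sides of WT, and both differences were within the error of the test. At 30%, timm29 had 61.5 and 70.8 in MZspg and 105.9 and 65.5 in WT.

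The small chaperone timm8b had 302.7 and 189.8 in MZspg and 163.8 and 119.3 in WT at 30% (log2 fold change 0.74, limma adjusted p = 0.650). The channel-forming timm23a had 263.7 and 276.8 in MZspg and 192.7 and 189.3 in WT at 30% (0.48, adjusted p = 0.789). At 60% timm8b had 143.5 and 246.4 in MZspg and 144.9 and 146.6 in WT, and timm23a had 215.9 and 199.3 in MZspg and 230.4 and 174.6 in WT. Both genes had groups that did not overlap at 30% and that overlapped at 60%. The brightest probe set of the class, timm13, which encodes a partner of timm8-type chaperones, had 777.7 and 566.0 in MZspg and 551.9 and 729.1 in WT at 60%, and 1032 and 1088 in MZspg and 1230 and 818.7 in WT at 30%. Its log2 fold changes between the genotypes were 0.06 and 0.08.

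In the outer membrane, there are 2 genes for the presequence receptor Tom20. At 60% epiboly the signals of tomm20a were 104.9 and 117.4 in MZspg and 272.2 and 212.4 in WT (log2 fold change -1.06, SE 0.35, 95% interval -1.81 to -0.30, limma adjusted p = 0.104). The brightest probe set of tomm20b had 228.9 and 353.4 in MZspg and 199.4 and 183.1 in WT (0.55, adjusted p = 0.384). Its second tested probe set lay the other way, with 26.1 and 16.8 in MZspg and 87.0 and 27.3 in WT (-0.97, adjusted p = 0.253), so the probe sets of tomm20b do not agree on a direction at 60%. At 30% tomm20a had 161.1 and 189.2 in MZspg and 135.7 and 206.2 in WT, which overlap, and the brightest set of tomm20b had 230.6 and 151.3 in MZspg and 122.5 and 110.1 in WT. The change of the tomm20a difference between the stages was -1.11 (unadjusted p = 0.0429, adjusted p = 0.574). By their brightest probe sets, mrpl37 of the large subunit and tomm20b were the 2 members above WT without overlap at both stages (2.86% of members, against 9.41% of all tested probe sets), while the second set of tomm20b lay below WT without overlap at 60%.

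The small TOM subunit tomm5 had 339.1 and 282.7 in MZspg and 143.6 and 201.1 in WT at 30% (log2 fold change 0.83, SE 0.32, limma adjusted p = 0.387). At 60% it had 294.1 and 286.0 in MZspg and 314.5 and 246.4 in WT, and the groups overlapped. The brightest probe set of the class, tomm22, a receptor that also organises the complex, had 729.5 and 573.3 in MZspg and 463.3 and 670.8 in WT at 60%. At 30% it had 681.7 and 568.3 in MZspg and 495.8 and 445.7 in WT, where the groups did not overlap (0.40, adjusted p = 0.833). The pore gene tomm40 had log2 fold changes of 0.24 at 60% and 0.13 at 30%.

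Although no single gene passed, more members lay above WT than below it. At 60% epiboly 51 of 70 had a positive log2 fold change (72.9%, against 50.6% of all tested probe sets), with a median of 0.22 against 0.01. At 30% there were 48 (68.6%, against 55.5%), with a median of 0.13 against 0.05. By class the medians at 60% were 0.22 for mrpl, 0.25 for mrps, 0.11 for timm and 0.06 for tomm, and at 30% they were 0.17, 0.01, 0.16 and 0.14. Groups that did not overlap were no more frequent than in the table as a whole: 17 members lay higher in MZspg at 60% (24.3%, against 28.7%) and 8 lower (11.4%, against 23.1%). At 30% 13 lay higher (18.6%, against 21.7%) and 4 lower (5.71%, against 16.8%). Among those higher, mrpl52 at 60% and mrpl48 at 30% passed the filter only through MZspg arrays. Their place in these counts is no independent support.

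The shift at 60% was seen in 1 of the 2 replicate pairs. Between the replicate 1 arrays of that stage the median MZspg minus WT difference of the members was -0.15, and 27 of 70 were positive. Between the replicate 2 arrays, both of high spike-in level, it was 0.56, and 55 of 70 were positive. All tested probe sets had medians of 0.02 and 0.00 in the same pairs. For the 36 mrpl genes the values were -0.25 with 9 positive and 0.70 with 31 positive. Without replicate 2 of MZspg at 60% the member median was -0.06, and without replicate 1 it was 0.44. At 30% the pairs gave 0.17 and 0.12, and the median became -0.04 without replicate 2 of WT and -0.02 without replicate 1 of MZspg.

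The spread between replicates was largest in that same group. The median absolute difference between the 2 arrays of MZspg at 60% was 0.58 for the members and 0.44 for all tested probe sets, and 56 of 70 members (80%) were higher on replicate 2, against 37.9% of all. In WT at 60% the median differences were 0.30 and 0.31, in MZspg at 30% 0.49 and 0.35, and in WT at 30% 0.42 and 0.33. Among the markers of other cell types, the summed signal of 6 yolk syncytial layer genes (6 of 7 listed were on the array, all tested) was also highest on this array. It was 765.1 and 1976 in MZspg and 384.8 and 314.4 in WT at 60%, and 200.01 and 346.1 in MZspg and 255.6 and 169.4 in WT at 30%. The sum at 60% in MZspg was largely that of the apolipoproteins apoa1a, apobb.1 and apoa2, with 1225, 371.2 and 220.8 on replicate 2, while hnf4a had 101.3 and 78.2 and mxtx2 8.12 and 16.6 there. The summed signal of 5 germ cell markers was lowest on the same array, with 581.7 and 414.6 in MZspg and 991.4 and 1098 in WT at 60%, and 1188 and 1386 in MZspg and 1350 and 1416 in WT at 30%. At 60%, apobb.1 was the 1 of 6 yolk syncytial layer genes called higher in MZspg, against 2.28% of all tested probe sets. Its log2 fold change was 3.18 (limma adjusted p = 0.0115). The gene apobb.1 passed the filter only through the MZspg 60% arrays, where it is high, so this call is no independent support. Of the 5 germ cell markers, nanos3 was the 1 called lower there (-1.52, adjusted p = 0.0312), against 2.24%. Other lists also held markers called between the genotypes. At 60%, 3 of 5 ectoderm markers, sox2, foxi1 and tfap2a, were called lower in MZspg, against 2.24% of all tested probe sets. Of these, sox2 and foxi1 passed the filter only through WT arrays, so their calls are no independent support. At 30%, 2 of 6 enveloping layer markers, krt5 and anxa1a, were called lower, against 1.27%. The other way at 30% lay 2 of the 6, cldnb (log2 fold change 1.19) and krt18a.1 (0.05). At 60% cldnb, with 1.47, was the 1 of 6 above 0, and the median of the 6 was -0.31. The log2 fold changes there were -1.72 for krt5, -1.10 for krt4, -0.39 for krt8, -0.23 for anxa1a and -0.18 for krt18a.1. Of the 6, 0 were called at 60%. The part of these cells, of the spike-in level and of the array itself in the member values was not tested.

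The second question was how the genes changed between 30% and 60% epiboly. In MZspg 7 of 70 members were called (10%, against 32.6% of all tested probe sets), 5 higher and 2 lower at 60% (13.8% and 18.8% of all). In WT 3 of 70 were called (4.29%, against 13.7%), with 0 higher and 3 lower at 60% (5.6% and 8.14% of all). The 8 genes called in either genotype by their brightest probe sets were ribosomal genes, as are the 36 mrpl and 19 mrps genes among the 70 members, and whether the classes differ was not tested. At an unadjusted p under 0.05 there were 15 members in each genotype (21.4%, against 44.5% of all in MZspg and 31.3% in WT). Most of these genes thus gave no call over this interval, in which a large share of the table did.

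**Figure D3:**
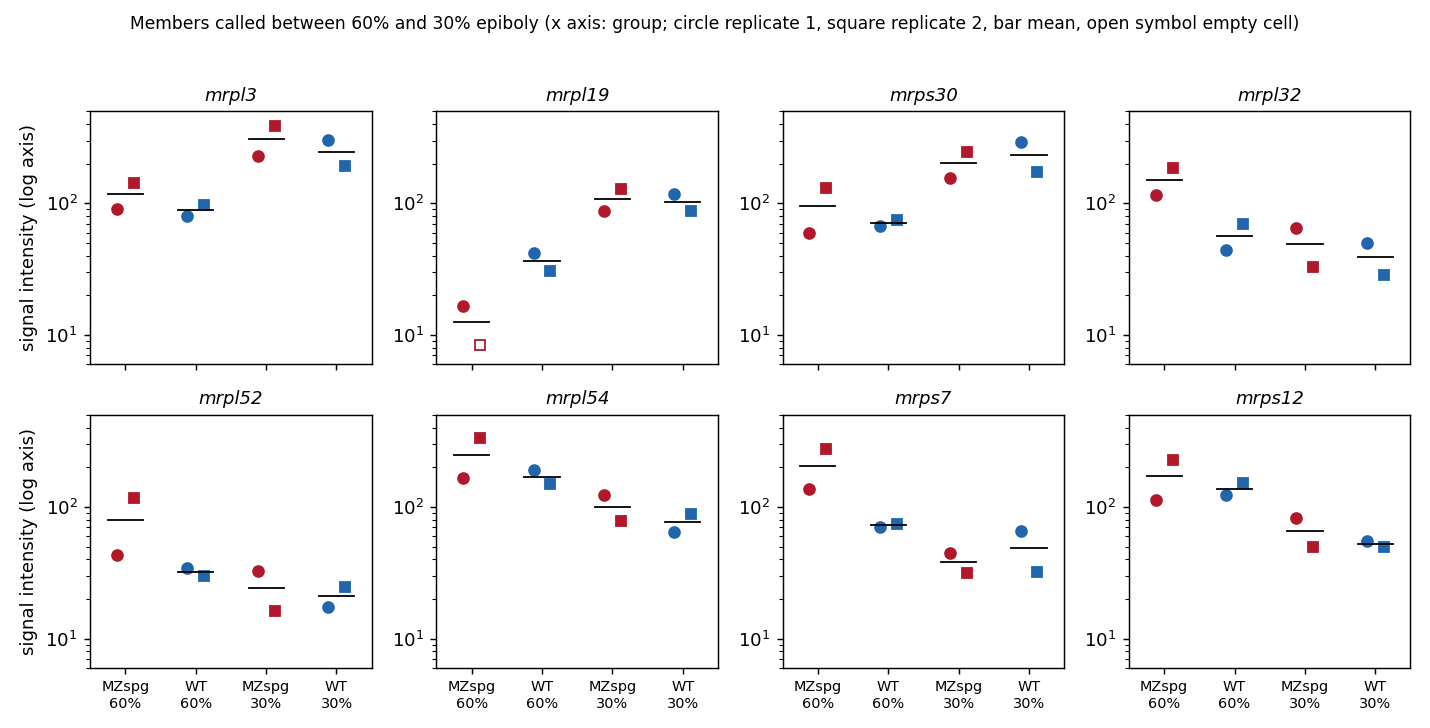
The 8 members called between the stages, with signal intensity on a log axis for the 4 groups; circles are replicate 1, squares replicate 2, bars group means and the open square an empty cell drawn at its fill value of 8.35. In mrpl3, mrpl19 and mrps30 both 60% groups lie below both 30% groups, and in mrpl32, mrpl52 and mrps7 the MZspg 60% group lies above all others.

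The genes mrpl19 and mrpl3 were lower at 60% in both genotypes. For mrpl19 the log2 fold change of 60% over 30% was -2.46 in MZspg (SE 0.38, limma adjusted p = 0.00155), from 16.6 and an empty cell at 60% against 88.0 and 129.6 at 30%. In WT it was -1.29 (adjusted p = 0.0446), from 41.8 and 30.9 at 60% against 117.7 and 87.0 at 30%. For mrpl3, a core protein of the large subunit beside the site of peptide bond formation, the signals in MZspg were 91.2 and 142.8 at 60% and 227.7 and 385.5 at 30% (-1.31, SE 0.40, adjusted p = 0.0263). In WT they were 80.3 and 97.1 at 60% and 302.7 and 193.1 at 30% (-1.37, adjusted p = 0.0414). No array of the later stage reached any array of the earlier stage in either gene.

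The gene mrps30, named for the small subunit but found in the large subunit of the mammalian mitochondrial ribosome, fell in WT to 67.5 and 74.4 at 60%, against 294.0 and 173.8 at 30% (log2 fold change -1.56, SE 0.43, limma adjusted p = 0.0359). In MZspg it had 59.7 and 129.8 at 60% and 157.2 and 245.4 at 30% (-1.07, adjusted p = 0.0759), which missed the threshold. All calls in WT rested on every WT array: leaving out any 1 of the 4 left 0 members called there. In MZspg, mrpl19 stayed under the threshold in all 8 fits that left out 1 array, with a highest adjusted p of 0.0213, and mrpl3 in 6 of 8.

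The members that were higher at 60% were called in MZspg alone, and the largest change was that of mrps7. It had 136.0 and 276.7 at 60% and 44.6 and 31.6 at 30% (log2 fold change 2.13, SE 0.43, limma adjusted p = 0.00477), and it stayed under the threshold in all 8 fits that left out 1 array. The dim second probe set of mrps7 showed no rise, with 19.4 and 23.6 at 60% and 34.6 and 19.4 at 30% in MZspg. In WT the brightest set had 70.8 and 74.3 at 60% and 65.4 and 31.9 at 30% (0.56, adjusted p = 0.409). For mrpl32 the signals in MZspg were 116.7 and 184.4 at 60% and 64.9 and 32.6 at 30% (1.49, adjusted p = 0.0222), and in WT 44.1 and 69.8 at 60% and 49.7 and 28.4 at 30% (0.47, adjusted p = 0.498). A stage change that is called in one genotype and not in the other is not shown to differ: the interaction test called 0 members (0% of all tested probe sets). At an unadjusted p under 0.05 it gave 2 members, against 8.65% of all: mrps7 above 0 (4.35% of all) and tomm20a below 0 (4.3% of all). Its estimate was positive in 33 of 70 members (47.1%, against 48.8%).

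The other 3 calls in MZspg were less firm. For mrps12, a protein of the decoding site, the signals in MZspg were 114.1 and 227.5 at 60% and 82.4 and 49.7 at 30% (log2 fold change 1.22, limma adjusted p = 0.0399). In WT they were 122.6 and 153.2 at 60% and 55.3 and 49.3 at 30% (1.25, adjusted p = 0.0615), so the estimates were alike and fell on either side of the threshold. For mrpl54 they were 166.5 and 335.2 at 60% and 122.6 and 78.4 at 30% in MZspg (1.20, adjusted p = 0.0441), and 190.6 and 149.7 at 60% and 64.9 and 89.0 at 30% in WT (1.06, adjusted p = 0.102). For mrpl52 they were 42.9 and 116.4 at 60% and 32.8 and 16.1 at 30% in MZspg (1.32, adjusted p = 0.0444), and 34.4 and 29.7 at 60% and 17.4 and 24.6 at 30% in WT (0.46, adjusted p = 0.524). The gene mrpl52 passed the filter only through the MZspg 60% arrays, where it is high, so its call is no independent support. Each of these 3 genes stayed under the threshold in 2 of 8 fits that left out 1 array.

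All 5 genes called higher in MZspg had their highest signal on replicate 2 at 60%, the array that stood apart. Without it, 4 members were called in MZspg: mrps7 higher, and mrpl19, mrpl3 and mrps30 lower. Without replicate 1 of MZspg at 60% there were 11, and without replicate 2 of MZspg at 30% there were 2. With both arrays of high spike-in level left out, mrpl19 was the 1 member called in MZspg, and 0 were called in WT. With the replicate number as a block the counts were 4 in MZspg and 1 in WT. The shares of all tested probe sets called in these fits are not given here, so the counts do not set the members apart from the table.

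**Figure D4:**
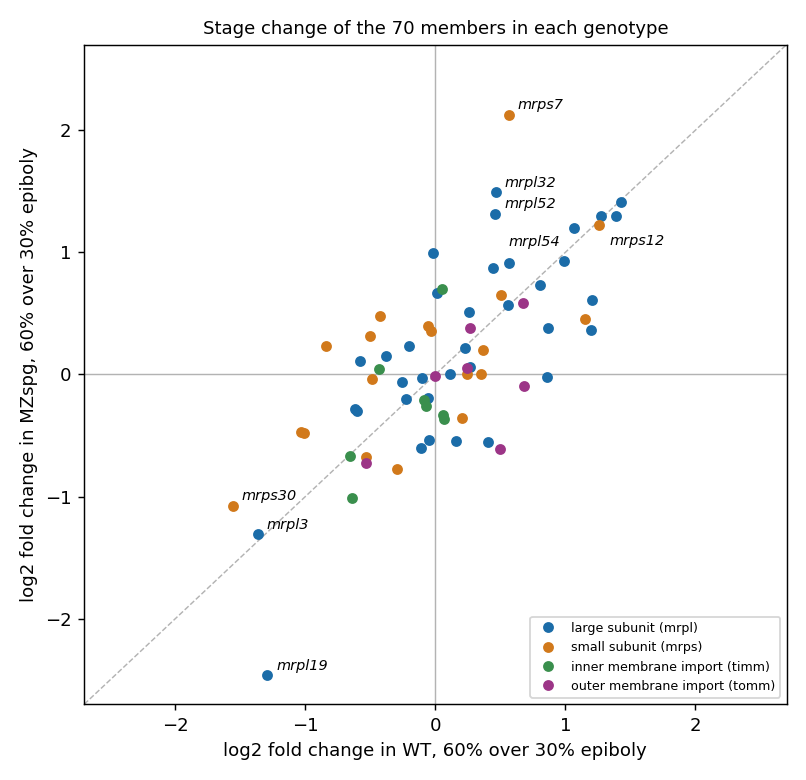
Each point is 1 of the 70 members, placed by its log2 fold change of 60% over 30% epiboly in WT (x axis) and in MZspg (y axis); the dashed line marks equal change and the 8 called members are named. mrpl19 lies at -2.46 in MZspg and -1.29 in WT, and mrps7 at 2.13 in MZspg and 0.56 in WT.

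Across the 70 members the stage changes of both genotypes ran mostly the same way. In 52 members (74.3%) the sign was the same, against 79.6% of all tested probe sets, and Spearman's rho was 0.67 across the members and 0.77 across all, given as a description because genes are not independent replicates. For the genotype differences at the 2 stages, which share no array, the same sign was seen in 43 members (61.4%, against 61.6%), with a rho of 0.17 across the members and 0.36 across all.

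Counted without a test, 8 members lay higher at 60% without overlap in both genotypes (11.4%, against 19.3% of all tested probe sets): mrpl22, mrpl37, mrpl45, mrpl52, mrpl54, mrps7, mrps12 and tomm40. Of these, mrpl52 passed the filter only through the MZspg 60% arrays, so its place here is no independent support. Another 9 lay lower in both (12.9%, against 25.4%): mrpl3, mrpl19, mrpl44, mrps18a, mrps23, mrps30, timm13, timm29 and tomm34. Counted within each genotype, with the genes just named included, MZspg had 15 higher (21.4%, against 29.9%) and 14 lower (20%, against 37.7%). WT had 24 higher (34.3%, against 28.4%) and 14 lower (20%, against 34.5%). In the second list, the genes named timm or tomm had estimates that missed the threshold. The log2 fold changes were -0.67 in MZspg and -0.65 in WT for timm13, and -1.01 in MZspg and -0.64 in WT for timm29. For tomm34 they were -0.72 in MZspg and -0.53 in WT. The estimate was positive in 40 of 70 members in MZspg (57.1%, against 45.3% of all) and in 38 in WT (54.3%, against 45.8%). The median log2 fold change of the members was 0.06 in MZspg and 0.06 in WT, against -0.11 and -0.07 for all tested probe sets. Leaving out replicate 2 of MZspg at 60% turned the MZspg median to -0.12.

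Several genes had more than 1 probe set, and these did not always give the same picture. In 10 genes there were 11 further probe sets, of which 7 passed the filter. At 60% epiboly 6 of these 7 gave the MZspg against WT difference the opposite sign to the brightest probe set, while 45.7% of the 752 second probe sets in the whole table did so. At 30% it was 3 of 7, against 34.6%. Between the stages it was 5 of 7 in MZspg and 1 of 7 in WT, against 37.6% and 31.6%. The genes with opposite signs at 60% were mrpl19, mrpl28, mrps11, mrps15, mrps18b and tomm20b.

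At 60% in MZspg, 4 of the 7 tested second probe sets were called lower than at 30%, against 18.8% of all tested probe sets. The brightest sets of the same genes were not called. For mrps15 the second set had 146.7 and 38.5 at 60% and 352.2 and 318.5 at 30% in MZspg (log2 fold change -1.999, limma adjusted p = 0.00944), while the brightest gave 0.40. For mrps11 the second set had 32.2 and 11.1 at 60% and 122.9 and 102.4 at 30% (-2.08, adjusted p = 0.00458), while the brightest gave -0.03. For mrpl28 it had 54.4 and 24.1 at 60% and 147.2 and 152.6 at 30% (-1.79, adjusted p = 0.00939), and for tomm20b 26.1 and 16.8 at 60% and 118.7 and 64.9 at 30% (-1.69, adjusted p = 0.0202), while the brightest sets gave 0.11 and 0.58. Of the 7 tested second sets, these 4 had their lowest signal on replicate 2 of MZspg at 60%, beside 50.9% of second probe sets in the whole table.

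The disagreement also touches the genes called between the stages: mrps7, whose dim second set is given above, and mrpl19. The second set of mrpl19 had 79.2 and 66.5 in MZspg and 48.7 and 67.0 in WT at 60%, and 51.4 and 58.4 in MZspg and 65.4 and 53.5 in WT at 30%. Its stage changes were 0.36 in MZspg and -0.04 in WT (limma adjusted p = 0.455 and 0.950), against -2.46 and -1.29 for the brightest set. The fall of mrpl19 therefore holds for 1 of its 2 probe sets. Which transcript end or form each set reads was not tested.

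**Figure D5:**
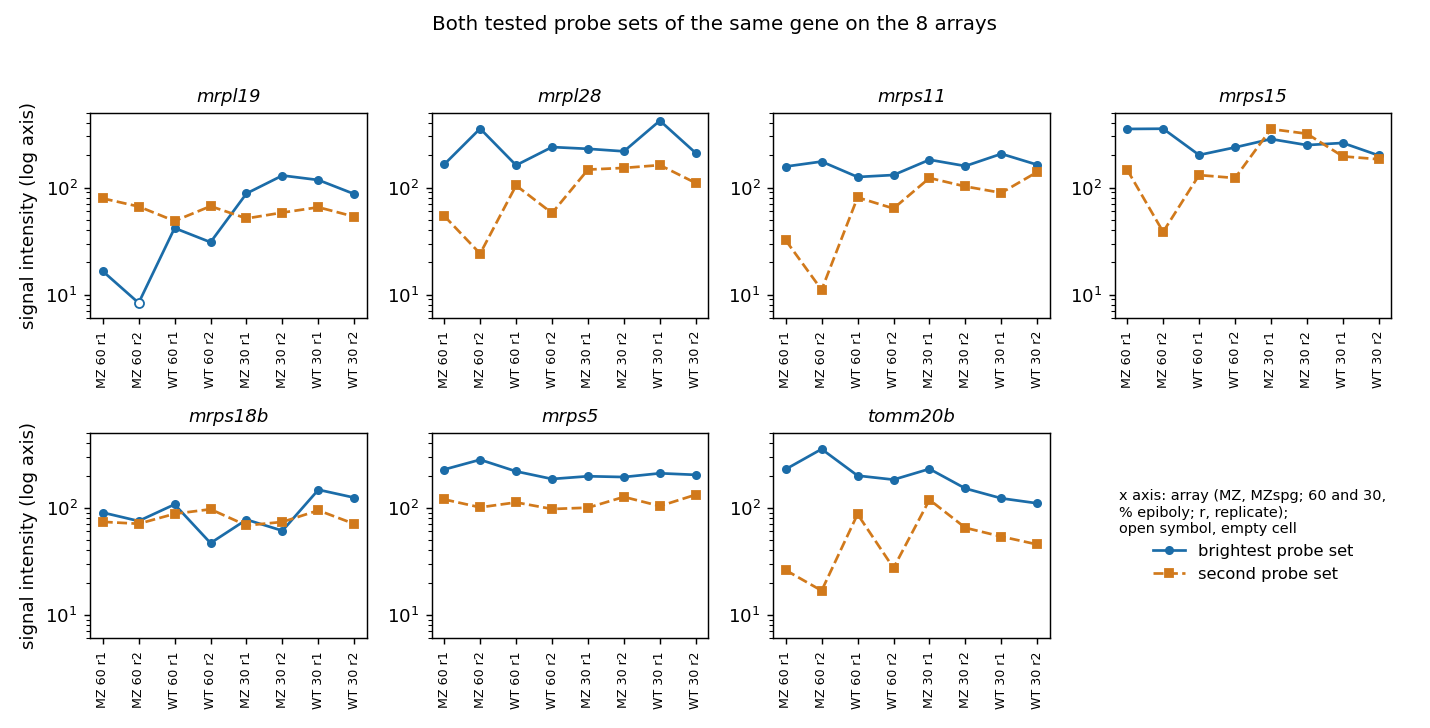
Signal intensity (log axis) of the brightest (circles, solid) and the second tested probe set (squares, dashed) of 7 members on the 8 arrays; the open circle is an empty cell drawn at its fill value of 8.35. The second sets of mrpl28, mrps11, mrps15 and tomm20b are lowest on replicate 2 of MZspg at 60%, with 24.1, 11.1, 38.5 and 16.8.

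The partners of these genes were examined as 4 lists, and their counts are read beside the shares of all tested probe sets. Between the genotypes 4.52% of all were called at 60% and 1.68% at 30%. Between the stages 13.8% were called higher and 18.8% lower in MZspg, and 5.6% higher and 8.14% lower in WT. Of 20 tested mitochondrial translation and ribosome assembly factors, 0 were called between the genotypes at either stage, with medians of 0.18 at 60% and -0.14 at 30%. The smallest p at 60% was that of gfm1, a mitochondrial elongation factor, with 102.0 and 120.2 in MZspg and 39.9 and 54.9 in WT (log2 fold change 1.10, limma adjusted p = 0.108). Between the stages, malsu1, an assembly factor of the large subunit, rose in both genotypes. It had 79.2 and 166.0 at 60% and 41.1 and 21.4 at 30% in MZspg (1.67, adjusted p = 0.0135), and 72.1 and 73.5 at 60% and 23.6 and 13.2 at 30% in WT (1.60, adjusted p = 0.0322). In the same comparisons mtfmt, which formylates the initiator tRNA, was called lower in MZspg (-1.49, adjusted p = 0.0117), and ptcd3, a protein bound to the small subunit, in WT (-1.53, adjusted p = 0.0233). The gene mtfmt passed the filter only through the 30% arrays, where it is high, so its call is no independent support. Of 8 fits that left out 1 array, malsu1 passed in 6 in MZspg and 4 in WT, mtfmt in 6 and ptcd3 in 5. The list medians of the stage change were -0.28 in MZspg and -0.41 in WT.

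Of 4 tested genes for mitochondrial tRNA charging, 0 were called between the genotypes, with medians of 0.61 at 60% and 0.16 at 30%. The smallest p at both stages was that of gars1, a glycyl-tRNA synthetase, whose groups did not overlap. It had 577.0 and 491.8 in MZspg and 298.9 and 283.4 in WT at 60% (log2 fold change 0.85, limma adjusted p = 0.134), and 505.2 and 775.3 in MZspg and 412.0 and 321.8 in WT at 30% (0.77, adjusted p = 0.419). Between the stages in MZspg, kars1 and hars, lysyl- and histidyl-tRNA synthetases, were called higher (log2 fold change 0.77 and 1.00, limma adjusted p = 0.0434 and 0.0386). In the same comparison qrsl1, a subunit of the glutaminyl-tRNA amidotransferase, was called lower (-1.44, adjusted p = 0.0114). The gene qrsl1 passed the filter only through the 30% arrays, where it is high, so this call is no independent support. Of 8 fits that left out 1 array, kars1 passed in 2, hars in 3 and qrsl1 in 7. In WT 0 of the 4 were called. The genes gars1, kars1 and hars also name cytosolic forms of the enzyme, which these values do not separate.

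Of 15 tested import partners, peptidases and chaperones, 1 was called between the genotypes at 30% (1.68% of all) and 0 at 60% (4.52% of all). This was dnaja3a, a mitochondrial co-chaperone of the Hsp40 family, with 93.6 and 179.3 in MZspg and 32.1 and 20.5 in WT at 30% (log2 fold change 1.996, limma adjusted p = 0.0455). At 60% it had 58.5 and 62.0 in MZspg and 9.65 and 28.04 in WT (1.40, adjusted p = 0.0930). The gene dnaja3a passed the filter only through MZspg arrays, where it is high, so its call at 30% is no independent support. The call held in 3 of 8 fits that left out 1 array. Between the stages in MZspg, 3 of the 15 were called lower, against 18.8% of all tested probe sets, and 0 higher, against 13.8%. Those called lower included samm50 and mtx1b of the machinery that sorts outer membrane proteins (-1.85 and -1.51, adjusted p = 0.00389 and 0.0169). The other was hspd1, the chaperonin Hsp60 (-0.79, adjusted p = 0.0338). Here samm50 passed the filter only through the 30% arrays of both genotypes, and mtx1b only through the MZspg 30% arrays. The falls of these genes, also that of samm50 in WT given below, are therefore no independent support. Of 8 fits that left out 1 array, samm50 passed in 8, mtx1b in 5 and hspd1 in 3. In WT samm50 was the 1 gene called lower (-1.75, adjusted p = 0.0144), against 8.14% of all tested probe sets. It had 31.8 and 33.8 at 60% and 168.1 and 101.7 at 30%.

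Of 7 tested genes for mitochondrial DNA and its transcription, 0 were called between the genotypes, with pprc1, a transcriptional coactivator, nearest at 60%. It had 259.8 and 90.1 in MZspg and 574.2 and 509.5 in WT (log2 fold change -1.75, limma adjusted p = 0.0531). Between the stages in MZspg, tfam, the factor that packages and transcribes mitochondrial DNA, was called lower (-1.95, adjusted p = 0.00603), with 23.2 and 5.13 at 60% and 86.0 and 62.8 at 30%. In the same comparison pprc1 was called lower (-1.50, adjusted p = 0.0282) and gabpb2a, a subunit of the factor GABP, higher (1.78, adjusted p = 0.00586). Without replicate 2 of MZspg at 60%, the array that stood apart, pprc1 had -0.78 (adjusted p = 0.211) and tfam -1.36 (adjusted p = 0.0546), and neither passed the threshold. In WT gabpb2a was called higher (1.36, adjusted p = 0.0373), and tfam had 40.0 and 34.1 at 60% and 44.8 and 43.8 at 30% (-0.21, adjusted p = 0.773). The gene tfam passed the filter only through the 30% arrays, so its called fall in MZspg is no independent support. The interaction of genotype and stage did not pass for tfam (-1.74, adjusted p = 0.521) or pprc1 (-1.67, adjusted p = 0.533). Between the stages, 18.8% of all tested probe sets were called lower and 13.8% higher in MZspg, and 5.6% higher in WT.

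Maternal transcripts changed over the same interval. Of 6 maternal and oocyte markers, 4 were called lower at 60% in each genotype. The shares of all tested probe sets were 18.8% in MZspg and 8.14% in WT. At 60% the summed signal of the 6 markers was 1642 and 1026 in MZspg and 1336 and 1623 in WT. At 30% it was 4004 and 6111 in MZspg and 5018 and 4176 in WT. The median log2 fold change of these markers was -2.14 in MZspg and -1.81 in WT, beside 0.06 and 0.06 for the 70 members. The part of maternal clearance in the falls of mrpl3, mrpl19 and mrps30 was not tested.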

How the data were processed

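The deposited values were linear signal intensities, 1 column per array, made by the authors with MAS5 per the submitters' processing notes. All arrays share the same quantiles over their filled cells. The sources used here name neither the step behind this nor the rule for empty cells (14.98% to 22.42% of an array). Precision is limited by the 2 arrays per group.

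Signals were analysed as log2(signal + 9), which understates the change of dim genes. For empty cells, 1 of them in a member, the value 8.35 was used, which is the 10th percentile of the table. Probe sets with a signal of 41 or more on at least 2 arrays (7375) were fitted with 1 mean per group in limma 3.58.1 (R 4.3.3, lmFit, then eBayes with trend; degrees of freedom 4 residual, 7.67 prior). P-values were two-sided and Benjamini-Hochberg adjusted over the 7375 probe sets. The script was tested on simulated data. Replicates are biological per the labels. Alternatives were other pseudocounts, filters, treatments of empty cells, centring, variance models, the replicate number as a block, the spike-in level as a term, the mean over probe sets, and each array left out.

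Members and lists were chosen with earlier results of these data known, so their counts and medians are descriptions. Named are all called members, in each class the brightest member and those with the 2 smallest p per genotype comparison, and in each partner list the called genes and up to 3 with the smallest p in a genotype comparison, given here as the first at 60%. Other names were chosen after their values were seen. Of the 70 members, 70 gene IDs were found in the current gene table with the same symbol. Signals of different probe sets were not compared. Promoters were not analysed here.

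Among genes matching the name rule, 7 lay below the filter: mrpl1, mrpl43, mrps16, mrps33, timm21, timm8a and tomm40l. Their second-highest signals reached 36.8 (mrpl1) and 34.7 (tomm40l), while the lowest among the members were 42.3 (mrpl48) and 42.9 (mrpl52).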

Additional observations from a re-analysis of the deposited data

How the results depend on the processing

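Called members between the genotypes stayed at 0 under every alternative at 30% epiboly and in the interaction, and at 60% they ranged from 0 to 2 when 1 array was left out. In MZspg, the 7 members called between the stages became 2 with no filter on dim probe sets, 3 with a filter of 41 on all 8 arrays, 2 with only the groups of the comparison, 4 with the spike-in level as a term, 1 without both arrays of high spike-in level, and 2 to 11 when 1 array was left out. In WT, 3 became 0 with no filter, 8 with only the groups of the comparison, 0 without both arrays of high spike-in level, and 0 to 4 when 1 array was left out. The replicate block gave 4 called members in MZspg and 1 in WT, and 0 in each genotype comparison. The numbers are not said to pair the samples: replicate differences correlated between -0.33 and 0.08 across groups. Member medians ranged over single arrays left out from -0.06 to 0.44 between the genotypes at 60%, from -0.04 to 0.34 at 30%, from -0.12 to 0.38 between the stages in MZspg, from 0.03 to 0.27 in WT, and from -0.22 to 0.33 in the interaction. Without both arrays of high spike-in level the median at 60% was -0.15. Fill rule, pseudocount, centring, variance model and mean over probe sets left all counts within 1.5 times. The counts of called members are given without the share of all tested probe sets called in the same fit. They thus do not tell a change of the members from a change of the whole table. The cause of these changes was not tested.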

Other observations

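A further probe set too dim to be tested, beside that of mrps7 given above, belonged to mrps31. The second set of mrps31, a small-subunit protein, had 8.72 and 5.09 in MZspg and 5.29 and 6.07 in WT at 60% epiboly, and 20.6 and 26.8 in MZspg and 20.6 and 12.5 in WT at 30%. Its brightest set had 84.3 and 122.6 in MZspg and 58.4 and 64.2 in WT at 60%, and 115.3 and 181.2 in MZspg and 166.5 and 108.6 in WT at 30%. In both sets of mrps31 the 30% arrays lay above the WT 60% arrays. They lay above the MZspg 60% arrays in the dim set alone, and overlapped them in the brightest set. Neither stage difference of the tested set passed. The gene tomm40l, a relative of the TOM pore, reached 86.5 on replicate 1 of WT at 60% and 34.7 or less on the other 7 arrays.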
